A study of Mus musculus with 4 samples.

Results

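Small nucleolar RNAs were counted in the immunoglobulin-secreting mouse plasmacytoma line MPC11 after depletion of Ell2. They fall into box C/D snoRNAs, whose symbols start with Snord, and box H/ACA snoRNAs, whose symbols start with Snora. Of 132 such entries among 22722 genes, 86 had a summed count of at least 15 over the 4 libraries and were taken as members, 58 of box C/D and 28 of box H/ACA. The tested libraries were 2 cultures with a lentiviral hairpin against Ell2 (Ell2-KD, pLKO.1-shELL2-1C7), which encodes an elongation factor of RNA polymerase II, and the controls were 2 cultures with a hairpin against GFP (shGFP), a sequence that mouse cells lack. All 4 cultures, the shGFP ones included, had virus for 18 h, puromycin selection for 72 h and 72 h of expansion, and total RNA purified on columns was sequenced on the SOLiD platform. Only 1 hairpin per target was used, and the line is a transformed one. Samples of a group are labelled as biological replicates and numbered 1 and 2, without a statement of what a number stands for. Any p-value given here therefore covers only the spread among the libraries.

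A box C/D snoRNA binds Fbl, Nop56, Nop58 and Nhp2l1 and guides methylation of the ribose at a base-paired site, mostly in ribosomal RNA. A box H/ACA snoRNA binds Dkc1, Nhp2, Nop10 and Gar1 and guides conversion of uridine to pseudouridine. Most mammalian snoRNAs are not transcribed on their own but are cut out of introns of a host gene after splicing, so that host mRNA and snoRNA come from the same primary transcript. In human cells and flies, ELL proteins are also part of the little elongation complex, which takes part in transcription of small nuclear RNA genes and of snoRNA genes with promoters of their own.

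The sequences of the members on which the results turn are shown first, in 5′ to 3′ direction on the transcribed strand, from the GENCODE M21 annotation of build GRCm38. The deposited counts are on build mm9, so positions are not given. For box C/D, capitals mark a C box (ATGATGA or GTGATGA in the first 25 bases) and a D box (CTGA in the last 20 bases). Snord15b had the highest mean CPM over the 4 libraries, and Snord8 had the replicate libraries farthest apart among the 6 box C/D members of highest mean CPM. Snord42a had the smallest p of box C/D. Snord42b lies in the same host gene, and Snord99 shares a host gene with Snora61.
Snord15b: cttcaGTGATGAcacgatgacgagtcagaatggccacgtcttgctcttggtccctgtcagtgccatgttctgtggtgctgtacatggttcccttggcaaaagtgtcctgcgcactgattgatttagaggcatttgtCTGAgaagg
Snord8: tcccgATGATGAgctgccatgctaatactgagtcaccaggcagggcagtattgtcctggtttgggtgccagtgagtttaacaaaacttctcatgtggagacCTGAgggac
Snord42a: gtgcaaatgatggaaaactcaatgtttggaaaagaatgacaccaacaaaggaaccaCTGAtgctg
Snord42b: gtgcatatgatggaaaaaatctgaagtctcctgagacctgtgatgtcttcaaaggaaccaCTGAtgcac
Snord99: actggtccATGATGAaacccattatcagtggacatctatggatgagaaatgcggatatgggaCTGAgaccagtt
For box H/ACA, capitals mark the bases ACA exactly 3 bases before the 3′ end. Snora61 had the smallest p of its class, and Snora68 was the member with the closest agreement between replicates.
Snora61: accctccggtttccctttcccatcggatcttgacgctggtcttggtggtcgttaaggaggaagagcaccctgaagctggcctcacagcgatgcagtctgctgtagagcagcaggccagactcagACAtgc
Snora68: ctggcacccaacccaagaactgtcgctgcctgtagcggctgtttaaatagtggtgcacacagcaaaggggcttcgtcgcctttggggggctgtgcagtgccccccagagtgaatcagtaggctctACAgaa
Snord42a and Snord42b have no C box of these letters, which says only that the letters are absent from the window searched on the transcribed strand. Across the 58 box C/D members, 34 held the C box (58.6%, against 67.7% of the 96 Snord genes of the annotation) and 56 held the D box (96.6%, against 97.9%). Of the 26 box H/ACA members with a single annotated copy, 21 ended in ACA at that position (80.8%, against 84.2% of 38 Snora genes), and 0 held the C box. The D box letters are short and were also found in 2 of these 26, or 7.69%. The box C/D members were 64 to 238 bases long with a median of 78.5, and the box H/ACA members were 127 to 196 bases long with a median of 132.5. Reads of near copies can be split between them. Among the member sequences, Snord88a and Snord88c (94.44% identical), Snord35a and Snord35b (75.56%), Snord49a and Snord49b (73.61%) and Snora2b and Snora34 (71.74%) exceeded 70% identity. Their counts may be uncertain for that reason, and whether reads were split was not checked.

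The libraries held 13914488 and 3496471 counts for Ell2-KD replicates 1 and 2, and 8323915 and 5088789 for shGFP replicates 1 and 2. Ell2 itself stood at 87.8 and 115 CPM (counts scaled to the TMM-normalised library size) in Ell2-KD, against 938 and 996 CPM in shGFP, which is -3.25 ± 0.23 on the log2 scale (SE; edgeR adjusted p = 0.00032). All 6 plasma cell markers examined, Igj and Xbp1 among them, were counted in every library, with summed levels of 16394 and 12737 CPM of the library total in Ell2-KD and 20262 and 15369 in shGFP. The 6 markers of B cells summed to 861 and 932 CPM of the library total in Ell2-KD and 400.1 and 356 in shGFP, nearly all of it from Ms4a1, while Pax5 had counts of 0 and 0 in Ell2-KD and 30 and 1 in shGFP. Markers of T, myeloid, erythroid and stromal cells summed to 0.240 to 11.4 CPM per list and library, with the globin gene Hbb-b1 at 0 in all libraries. The part of these differences in the snoRNA results was not tested.

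The replicate numbers stood farther apart in snoRNA content than the groups did. Box C/D members took 0.178% and 1.79% of all counts in Ell2-KD replicates 1 and 2, against 0.196% and 1.92% in shGFP replicates 1 and 2. Within each number the Ell2-KD share lay slightly below the shGFP share, with log2 ratios of -0.14 in number 1 and -0.11 in number 2. Box H/ACA members took 0.0605% and 0.316% in Ell2-KD, against 0.0899% and 0.423% in shGFP, log2 ratios of -0.57 in number 1 and -0.42 in number 2. For both classes the groups overlapped, because both replicate 2 libraries were above both replicate 1 libraries. With 2 libraries against 2, an exact permutation test cannot reach 0.05, so no test of these shares was made. A share also depends on the counts of all other genes in its library. Among other sources, a lower share in RNA of a whole culture can come from fewer cells with the RNA or from less of it per cell. These cannot be told apart, and whether the lower shares have a source in common with the distance between the replicate numbers was not tested.

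**Figure D1:**
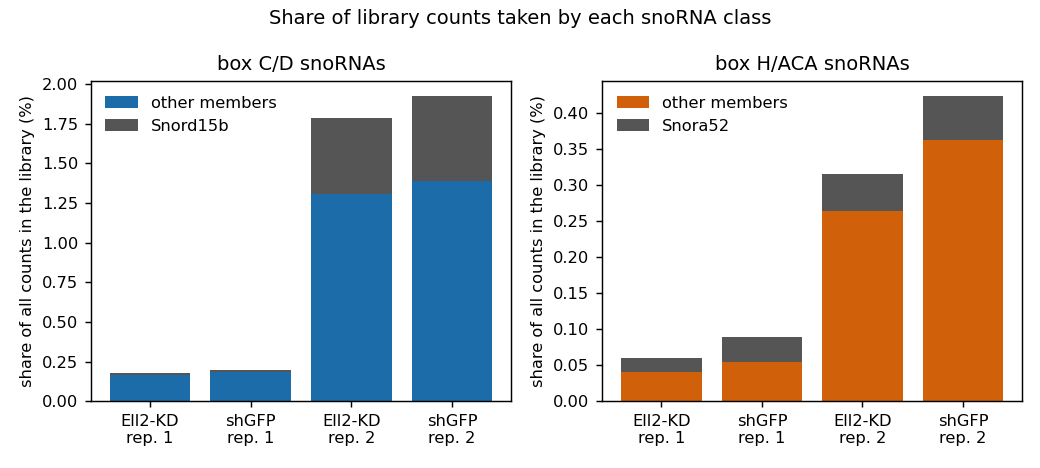
Share of all counts of a library (percent, vertical axis from 0) taken by box C/D members (left) and box H/ACA members (right), with 1 bar per library; the grey part of a bar is the member of highest mean CPM, Snord15b or Snora52. The replicate 2 bars of both groups stand well above the replicate 1 bars, at 1.79% in Ell2-KD and 1.92% in shGFP for box C/D and at 0.316% and 0.423% for box H/ACA, and within a number the Ell2-KD bar is the lower of the pair.

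Snord15b, a guide for 28S ribosomal RNA, took a larger part of its class in replicate 2 than in replicate 1, but the distance between the numbers remained without it. It made up 5.67% and 27.0% of the box C/D counts in Ell2-KD replicates 1 and 2, against 4.04% and 27.8% in shGFP. Without Snord15b the box C/D shares were 0.168% and 1.30% in Ell2-KD, against 0.189% and 1.39% in shGFP. Snora52, the box H/ACA member of highest mean CPM, took a smaller part of its class in replicate 2 than in replicate 1, at 32.0% and 16.5% of its class in Ell2-KD, against 39.0% and 14.4% in shGFP. Snora52 was the highest of its class in both replicate 1 libraries, but in replicate 2 it was below Snora74a in Ell2-KD (18.3% of the class) and below Snora17 in shGFP (16.5%).

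Of the members, 56 of box C/D and 27 of box H/ACA had enough counts to be tested. Both replicate 2 libraries were above both replicate 1 libraries for 50 of the 56 and 24 of the 27, whereas 19.9% of the 11027 genes tested were. The reverse held for 2 box C/D members (Snord82 and Snord55) and 1 box H/ACA member (Snora3), against 20.2% of genes tested. The median log2 ratio of replicate 2 over replicate 1 for box C/D was 3.55 in Ell2-KD and 3.75 in shGFP, and for box H/ACA it was 2.15 in Ell2-KD and 2.58 in shGFP. Over all genes tested it was -0.01 in either group. More than 8-fold separated replicate 2 from replicate 1 in both groups for 30 box C/D and 7 box H/ACA members, against 1.04% of genes tested, so that members were 32.2% of these 115 genes and 0.753% of the genes tested.

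**Figure D2:**
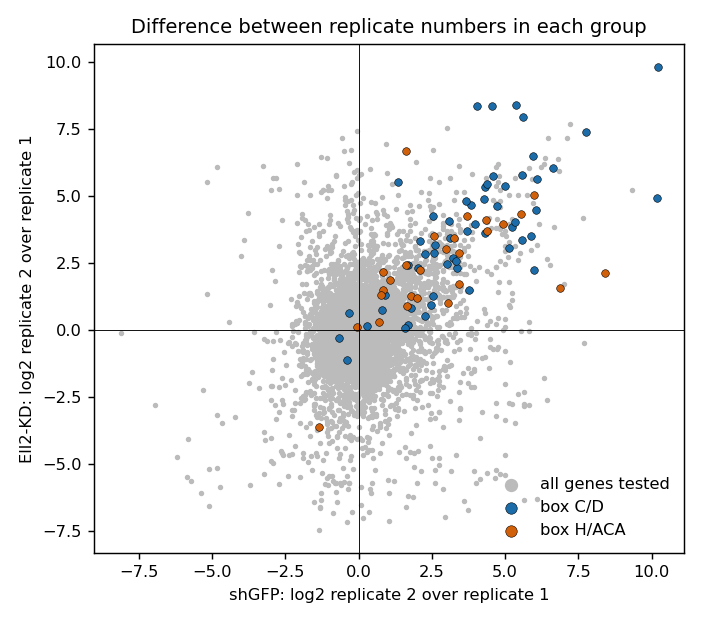
Log2 ratio of replicate 2 over replicate 1 in Ell2-KD (vertical axis) against the same ratio in shGFP (horizontal axis), with 1 point per gene tested; grey points are all genes and coloured points the members of each class. Most members lie in the upper right, with medians of 3.55 in Ell2-KD and 3.75 in shGFP for box C/D and of 2.15 and 2.58 for box H/ACA, while all genes centre near 0.

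The size of this distance varied between members, and members with a wide distance in Ell2-KD tended to have a wide one in shGFP. Across the 56 box C/D members the ratios of both groups had a Pearson r of 0.73 and a Spearman rho of 0.75, and across the 27 box H/ACA members 0.52 and 0.59. These are descriptions over genes that share the same 4 libraries, and genes are not independent replicates. Length was weakly related to the mean ratio, with a rho of 0.32 over box C/D and 0.18 over 25 box H/ACA members, and GC percent had a rho of 0.18 and -0.42. Snord8, a guide for U6 small nuclear RNA in human cells, had the widest distance among the 6 box C/D members of highest mean CPM, with log2 ratios of 7.37 in Ell2-KD and 7.77 in shGFP. A few members were not, on average, over 2-fold higher in replicate 2. The mean log2 ratio was below 1 for Snord55, Snord82, Snord87, Snord34, Snord32a, Snord4a and Snord49a of box C/D and for Snora3, Snora68 and Snora61 of box H/ACA.

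For the difference between Ell2-KD and shGFP, no snoRNA passed the edgeR test with group as the only term. That quasi-likelihood test at an adjusted p of 0.05 called 0 of 56 box C/D and 0 of 27 box H/ACA members, and 5 genes, or 0.0453% of the 11027 tested. The smallest adjusted p was 0.477 in box C/D and 0.450 in box H/ACA. At an unadjusted p under 0.05, 1 box C/D member (Snord42a) and 1 box H/ACA member (Snora61) were lower in Ell2-KD and 0 were higher, and over all genes tested 3.26% were lower and 2.57% higher. DESeq2 called 1 member of each class, which were Snord42a and Snora61, and 0.39% of all genes. With no filter on low counts, Snord42a was called and Snora61 was not, with 0.111% of genes called. With replicate number added as a term, Snord8 (higher) and Snora61 (lower) were called, with 0.254% of genes. At an unadjusted p under 0.05, that edgeR fit had 15 box C/D members lower and 2 higher, and 7 and 1 of box H/ACA. Over all genes the shares were 5.71% and 4.88%. Labels do not say what a number marks, so that fit is an alternative only. The SE was wide where the replicates lay far apart. The median SE of the log2 change was 2.21 in box C/D and 1.25 in box H/ACA, against 0.43 over all genes, and across members SE and distance had a rho of 0.99 in box C/D and 0.97 in box H/ACA. Counts were also simulated from the trend of variation over all genes tested, without a difference between replicate numbers. In them the test called 5.07% of genes with a 2-fold change, 55.8% with a 4-fold and 79.1% with an 8-fold change. These rates are for genes at large, and no rate was obtained for snoRNAs, whose SEs were wider.

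The log2 changes themselves lay below 0 for most members of both classes. In box C/D, 43 members were below and 13 above 0, and the median was -0.36. In box H/ACA, 21 were below and 6 above 0, and the median was -0.47. Over all genes tested 50.1% were negative and the median was -0.00. These class medians rest on the balance of the replicate numbers. Without Ell2-KD replicate 1 they were 0.40 for box C/D and 0.29 for box H/ACA, and without shGFP replicate 2 they were 2.44 and 1.42. Without Ell2-KD replicate 2 they were -3.39 and -1.88, and without shGFP replicate 1 they were -1.14 and -1.17. Both Ell2-KD libraries were below both shGFP libraries for 3 of 56 box C/D and 2 of 27 box H/ACA members (18.5% of genes tested). They were above both for 0 of either class (17.4%). A member with both replicate 2 libraries above, or both below, both replicate 1 libraries cannot have groups that separate in this way. Above were 50 and below 2 of the box C/D members, and 24 and 1 of box H/ACA. Over all genes tested these shares were 19.9% and 20.2%. The distance between the numbers thus limits the counts of separate groups, which are not comparable with the shares of genes.

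Within a replicate number 1 library of each group is compared, so the ratios carry no test. More members were lower than higher in Ell2-KD in both numbers. In number 1, 33 box C/D members were lower and 22 higher in Ell2-KD, with a median log2 ratio of -0.24, and 17 box H/ACA members were lower and 10 higher, with a median of -0.22. Of all genes tested 49.7% were lower in that number, with a median of 0.00. In number 2, 43 box C/D members were lower and 13 higher, with a median of -0.37, and 20 box H/ACA members were lower and 7 higher, with a median of -0.49. Of all genes 51.3% were lower there, with a median of -0.02. Counts under 3 were also set to a bound of 3, leaving out members under 3 in both libraries of a number. Medians were then -0.26 and -0.37 for box C/D in numbers 1 and 2 and -0.22 and -0.49 for box H/ACA. With this bound, 55 box C/D members had a ratio in number 1.

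Of the 33 box C/D members lower in number 1, 25 were also lower in number 2, where 43 of all 56 were lower. Of the 17 box H/ACA members lower in number 1, 15 were also lower in number 2, where 20 of all 27 were lower. Lower within both numbers were 25 of 56 box C/D and 15 of 27 box H/ACA members, against 29.2% of genes tested, and higher within both were 5 and 5, against 28%. Across the box C/D members the log2 ratios of the 2 numbers had an r of 0.26 and a rho of 0.09, and across the box H/ACA members 0.29 and 0.30; over all genes the rho was 0.17. Differences over 2-fold were more frequent downward. In number 1 they were downward for 18 box C/D and 6 box H/ACA members (10.8% of genes tested) and upward for 6 and 3 (9.21%). In number 2 they were downward for 12 and 4 (12.9%) and upward for 2 and 0 (7.07%). Over 2-fold lower in both numbers were 5 box C/D members and 1 box H/ACA member, against 3.52% of genes tested, and over 2-fold higher in both were 0 of either class, against 1.96%.

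**Figure D3:**
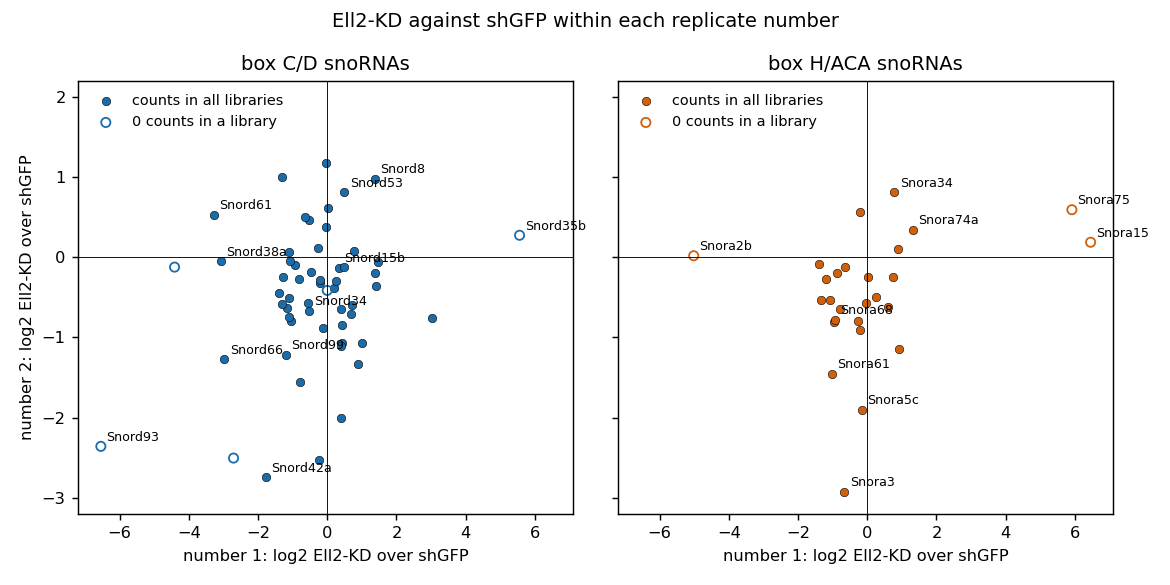
Log2 ratio of Ell2-KD over shGFP in replicate number 2 (vertical axis) against the ratio in number 1 (horizontal axis), with 1 point per tested member; open circles mark members with 0 counts in a library, whose ratio depends on the prior count of 0.5. The points centre a little below and left of 0, with medians of -0.24 in number 1 and -0.37 in number 2 for box C/D and of -0.22 and -0.49 for box H/ACA, and spread to all sides.

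The members called abundant are the 6 of each class with the highest mean CPM over the 4 libraries, a mean set mostly by replicate 2. In both replicate 1 libraries Snord47 was the highest box C/D member, Snord82, Snord55, Snord87 and Snord49a also lay above Snord15b, and Snord8 was among the low ones. All 6 box C/D members differed less between Ell2-KD and shGFP within a number than between the replicate numbers within a group. Snord15b had 99.7 and 4940.0 CPM in Ell2-KD replicates 1 and 2, against 78.7 and 5394 CPM in shGFP replicates 1 and 2. It was high in both replicate 2 libraries and low in both replicate 1 libraries, and its log2 change was -0.12 ± 3.22 (SE; edgeR adjusted p = 0.999). Snord22 (U22), which in frog oocytes is needed for processing of 18S ribosomal RNA and not for a modification, had 73.5 and 1844 CPM in Ell2-KD, against 139 and 1975 in shGFP. Snord89 had 21.1 and 1404 CPM in Ell2-KD, against 15.1 and 1524 in shGFP. Both followed the replicate number as Snord15b did, and their log2 changes were -0.14 ± 2.52 and -0.11 ± 3.40 (SE). Snord35a, a guide for 28S ribosomal RNA, had 41.4 and 1237 CPM in Ell2-KD, against 41.0 and 807 in shGFP, and was higher in Ell2-KD in number 2 (log2 ratio 0.62) and level in number 1 (0.01). Snord47, a further 28S guide that is cut from Gas5, was much steadier at 290.2 and 724 CPM in Ell2-KD, against 296 and 557 in shGFP, with a log2 change of 0.25 ± 0.56 (SE). Per 100 bases, mean levels over the 4 libraries were 1812 CPM for Snord15b, 799.8 for Snord22, 674 for Snord89, 606 for Snord47 and 591 for Snord35a, and neighbours in this order did not differ beyond the spread of their libraries.

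Among the 6 box C/D members of highest mean CPM, Snord8 had the highest ratio of Ell2-KD over shGFP in both numbers. Its counts were 102 and 4130 in Ell2-KD replicates 1 and 2, against 23 and 3088 in shGFP, or 7.24 and 1209 CPM in Ell2-KD, against 2.74 and 613 CPM in shGFP. The log2 ratio was 1.38 in number 1 and 0.98 in number 2, while the log2 change over all 4 libraries, 0.98 ± 3.83 (SE; edgeR adjusted p = 0.999), did not pass with group as the only term. Snord53 had 21.6 and 231 CPM in Ell2-KD, against 15.3 and 132 in shGFP, and was higher in Ell2-KD in both numbers by less than 2-fold (log2 ratios 0.50 and 0.81). Snord15a, which guides the same ribosomal RNA as Snord15b from the same host, was higher in Ell2-KD in number 1 only, with 92.1 and 175 CPM in Ell2-KD, against 33.1 and 183 in shGFP. Snord123 showed the opposite, with 11 and 110.1 CPM in Ell2-KD, against 11.3 and 48.8 in shGFP. None of these groups was separate from the other, since each Ell2-KD range covered part of the shGFP range.

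Snord42a, a guide for 18S ribosomal RNA in human cells, was the box C/D member with the clearest separation of the groups. Its counts were 100 and 43 in Ell2-KD replicates 1 and 2, against 204 and 427 in shGFP, which is 7.09 and 12.6 CPM in Ell2-KD, against 24.3 and 84.7 CPM in shGFP. Both Ell2-KD libraries were below both shGFP libraries, the log2 change was -2.50 ± 0.62 (SE; edgeR adjusted p = 0.477), and the log2 ratios were -1.77 in number 1 and -2.74 in number 2. DESeq2 gave -2.48 with an adjusted p of 0.0178. Snord34, a 28S guide in human cells, also had separate groups and close replicates, at 71.6 and 80.2 CPM in Ell2-KD, against 104 and 127 in shGFP. Its log2 change was -0.61 ± 0.28 (SE), and it did not pass (edgeR adjusted p = 0.859). Snord93 was the third with separate groups, with counts of 0 and 10 in Ell2-KD, against 50 and 77 in shGFP, and its fitted change of -3.07 ± 1.62 on the log2 scale (SE; edgeR adjusted p = 0.871) depends on how the 0 is treated.

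Among the other box C/D members with low values in Ell2-KD, the groups overlapped. Snord99, a 28S guide in human cells, had 5.53 and 72.6 CPM in Ell2-KD, against 12.8 and 169 in shGFP, log2 ratios of -1.20 and -1.22 within the numbers. Snord66, an 18S guide in human cells, had 1.70 and 33.7 CPM in Ell2-KD, against 13.8 and 81.2 in shGFP, log2 ratios of -2.98 and -1.27. Both were over 2-fold lower in Ell2-KD in each number, yet their SEs over 4 libraries were 2.28 and 2.02. Snord85 had counts of 0 and 12 in Ell2-KD, against 3 and 102 in shGFP. Snord88a had counts of 14 and 10 in Ell2-KD, against 10 and 87 in shGFP, so that the shGFP replicate 2 library alone stood apart. Reads of Snord88a can be split with its near copy Snord88c, which was too low to test, at counts of 0 and 14 in Ell2-KD, against 0 and 4 in shGFP.

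Of the 6 most abundant box H/ACA members, 5 had log2 changes below 0, none past the test. Snora52 had 191 and 534 CPM in Ell2-KD replicates 1 and 2, against 348 and 614 in shGFP, or -0.41 ± 0.62 on the log2 scale (SE; edgeR adjusted p = 0.999). Snora17 had 65.0 and 475 CPM in Ell2-KD, against 66.3 and 707 in shGFP. Snora28 had 17.2 and 346 CPM in Ell2-KD, against 11.3 and 531 in shGFP. Both were lower in Ell2-KD in number 2 (log2 ratios -0.57 and -0.62) without being lower by as much in number 1 (-0.03 and 0.60). Snora23 had 13.7 and 177 CPM in Ell2-KD, against 15.9 and 331 in shGFP, with log2 ratios of -0.21 and -0.90. Snora74a (U19), a 28S guide, was the exception, with 18.2 and 589.9 CPM in Ell2-KD, against 7.27 and 465 in shGFP, and log2 ratios of 1.31 and 0.34. Mean levels per 100 bases over the 4 libraries were 308 CPM for Snora52, 249 for Snora17, 178 for Snora28, 138 for Snora74a and 112 for Snora61, where Snord8 of box C/D had 416. In replicate 1 this order was turned round, with Snora52 at 139 CPM per 100 bases in Ell2-KD and 254 in shGFP and Snord8 at 6.58 in Ell2-KD and 2.49 in shGFP.

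Snora61 had the smallest p of all members, and the groups did not overlap. Its counts were 1081 and 321 in Ell2-KD replicates 1 and 2, against 1316 and 1295 in shGFP, which is 76.7 and 94.0 CPM in Ell2-KD, against 157 and 257 CPM in shGFP. Means were 85.3 ± 12.2 CPM in Ell2-KD and 207 ± 70.7 CPM in shGFP (SD, n = 2 each). The log2 change was -1.28 ± 0.30 (SE; edgeR adjusted p = 0.450), the log2 ratio was -1.03 in number 1 and -1.45 in number 2, and DESeq2 gave -1.27 with an adjusted p of 0.0342. The replicates of Snora61 were close, with replicate 2 over replicate 1 at 0.29 in Ell2-KD and 0.71 in shGFP on the log2 scale. Snora68 (U68), a 28S guide in human cells, was the other box H/ACA member with separate groups, at 18.6 and 19.9 CPM in Ell2-KD, against 35.4 and 34.1 in shGFP. Its replicates were close, with means of 19.2 ± 0.934 CPM in Ell2-KD and 34.8 ± 0.908 CPM in shGFP (SD, n = 2 each), yet the log2 change of -0.86 ± 0.42 (SE) did not pass (edgeR adjusted p = 0.865).

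The remaining box H/ACA members named by p or abundance had overlapping groups. Snora43 had 22.1 and 79.9 CPM in Ell2-KD, against 25.8 and 53.8 in shGFP. It has several copies in the annotation and was left out of the identity comparison, so its counts may be uncertain in the same way. Snora5c had 4.47 and 14.6 CPM in Ell2-KD, against 5.01 and 54.8 in shGFP, where 1 shGFP library stood apart. Snora64 (U64) had 6.46 and 14.9 CPM in Ell2-KD, against 3.46 and 13.9 in shGFP. Their log2 changes were 0.35 ± 0.62, -1.69 ± 1.25 and 0.29 ± 0.83 (SE). Snora3 was the member of its class that was lower in replicate 2 than in replicate 1, with 15 and 1.17 CPM in Ell2-KD, against 23.8 and 9.33 in shGFP. Snora34 had 1.28 and 10.8 CPM in Ell2-KD, against 0.715 and 6.15 in shGFP. Snora75, cut from the nucleolin gene, had counts of 54 and 39 in Ell2-KD, against 0 and 38 in shGFP, so its log2 change of 1.02 ± 1.62 (SE) rests on the 0 of shGFP replicate 1.

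**Figure D4:**
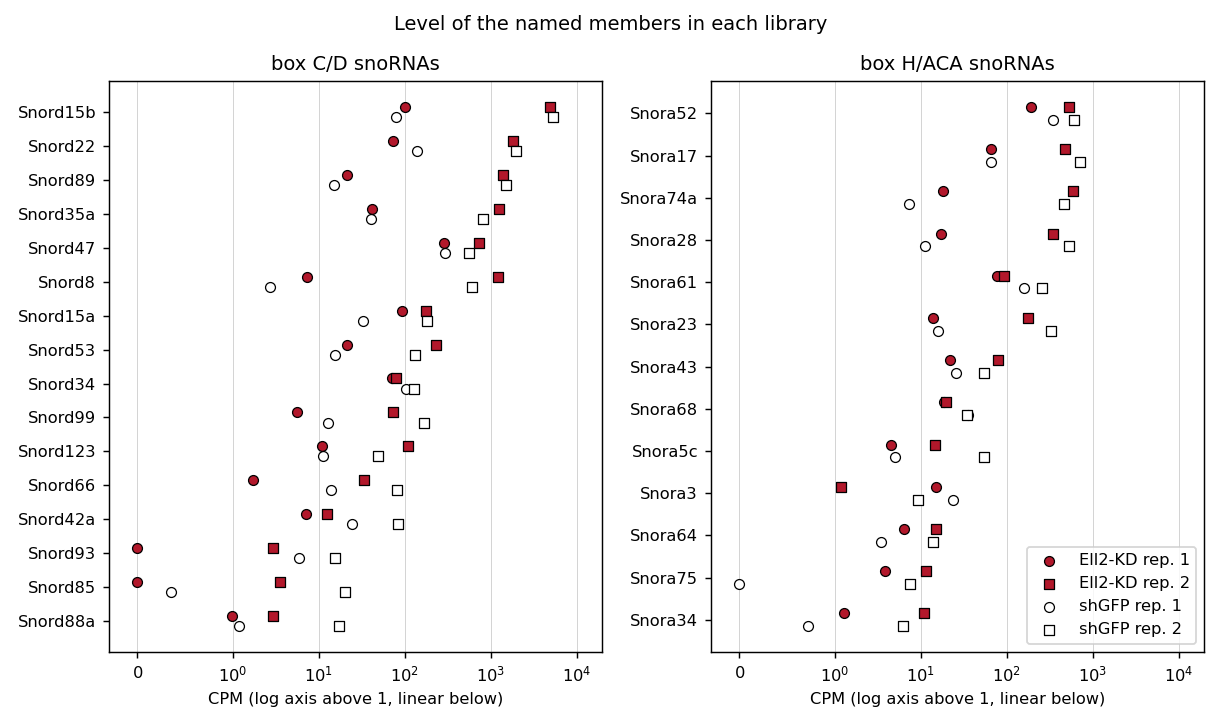
Level of the 29 named tested members in each library (CPM, horizontal axis, logarithmic above 1 and linear below), with 1 row per member, filled symbols for Ell2-KD above open symbols for shGFP, circles for replicate 1 and squares for replicate 2. Both Ell2-KD symbols lie left of both shGFP symbols for Snord34, Snord42a, Snord93, Snora61 and Snora68, while circles and squares lie far apart for Snord15b, Snord8 and Snora74a.

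Members not over 2-fold higher in replicate 2 had smaller SEs. Over the 7 such box C/D members the median log2 change was -0.40 with a median SE of 0.36, and over the 3 such box H/ACA members it was -0.98 with a median SE of 0.42; none passed the test. Snord82, in the nucleolin gene, had 177 and 144 CPM in Ell2-KD, against 214 and 134 in shGFP. Snord87, in Snhg6, had 106 and 165 CPM in Ell2-KD, against 151 and 119 in shGFP. Both had overlapping groups and log2 changes near 0 (-0.11 ± 0.28 and -0.01 ± 0.29, SE). Snord55 had 134 and 60.9 CPM in Ell2-KD, against 146 and 112 in shGFP, so that the shGFP values lay between and above those of Ell2-KD. Snora3 is in this set because it was lower in replicate 2, not because its replicates were close. The set was picked by the ratio of its replicates, and no test of it as a set was made.

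Members of the same host gene come from the same primary transcript. Their log2 changes are given side by side here, and differences between them were not tested. A host was found in the annotation for 82 of the 86 members, and for 77 of them it is among the counted genes; these were 56 host genes, of which 20 code for ribosomal proteins and hold 28 members. The median log2 change of the 55 hosts tested was 0.04, and 0 passed the test. Of the members with a tested host, 39 of 52 in box C/D and 16 of 21 in box H/ACA had a log2 change below that of their host. Across members the change followed that of the host neither in box C/D (r = -0.22, n = 52) nor in box H/ACA (r = 0.08, n = 21), descriptions in which members of 1 host repeat the same host value. An exon of the host overlaps 41 members in the annotation, and reads of the snoRNA and of the host exon cannot be told apart there.

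Snhg12, a noncoding host gene, holds Snora61, Snora44 and Snord99. Snhg12 itself had 20.4 and 22 CPM in Ell2-KD, against 15 and 23.8 in shGFP, a log2 change of 0.13 ± 0.49 (SE), and the log2 changes were -1.28 ± 0.30 for Snora61, -1.25 ± 2.28 for Snord99 and -0.59 ± 2.39 for Snora44 (SE). All 3 snoRNAs were lower in Ell2-KD within both numbers, while the host had log2 ratios of 0.44 in number 1 and -0.12 in number 2. All 3 overlap an exon of Snhg12 in the annotation, so their reads and those of the host exon cannot be told apart. Rpl23a, a ribosomal protein gene, holds Snord42a, Snord42b and Snord4a and had 596 and 887 CPM in Ell2-KD, against 588 and 1241 in shGFP, a log2 change of -0.30 ± 0.36 (SE). Its snoRNAs had log2 changes of -2.50 ± 0.62 (Snord42a), -0.78 ± 2.93 (Snord42b) and -0.55 ± 0.54 (Snord4a), with SEs. Snord42a and Snord42b both guide 18S ribosomal RNA in human cells. Snord42b had 1.92 and 81.4 CPM in Ell2-KD, against 4.17 and 136 in shGFP, and its libraries separated by replicate number, whereas those of Snord42a separated by group. Rpl13a holds Snord34, Snord33, Snord32a and Snord35a, with log2 changes of -0.61 ± 0.28, -0.60 ± 1.80, -0.27 ± 0.45 and 0.59 ± 2.69 (SE) in that order. Rpl13a was itself set apart by replicate number, at 311 and 1511 CPM in Ell2-KD, against 319.8 and 1421 in shGFP, and had a log2 change of 0.07 ± 1.43 (SE).

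Hosts of Snord15b and Snord8 were compared in the same way. Rps3, host of Snord15a and Snord15b, had 2344 and 2823 CPM in Ell2-KD, against 2343 and 2507 in shGFP, a log2 change of 0.09 ± 0.18 (SE). The log2 ratio of replicate 2 over replicate 1 was 0.27 in Ell2-KD and 0.10 in shGFP for the host, where Snord15b had 5.63 in Ell2-KD and 6.10 in shGFP. Snord15b overlaps an exon of Rps3 in the annotation, so its reads and those of the host exon cannot be told apart. Chd8, a chromatin remodeller gene and host of Snord8, had 227 and 352 CPM in Ell2-KD, against 384 and 376 in shGFP, a log2 change of -0.39 ± 0.25 (SE), while Snord8 had 0.98 ± 3.83. Both Ell2-KD libraries were below both shGFP libraries for Chd8, and for Rps3 the groups overlapped. Of the 55 hosts tested, 5 were below in this way and 12 above, against 18.5% and 17.4% of genes tested. No host or member in the Rps3 and Chd8 pairs passed the edgeR test with group as the only term.

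**Figure D5:**
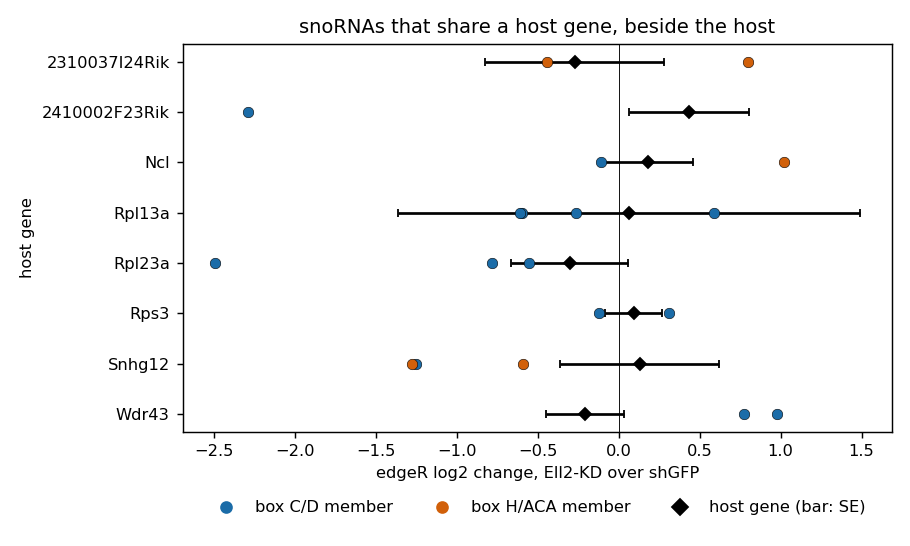
Log2 change of Ell2-KD over shGFP (horizontal axis) for the 8 host genes that hold at least 2 members, among them a named member, with 1 row per host, a black diamond with its SE bar for the host and a coloured point for each tested member; Snord88c, in 2410002F23Rik, was not tested. Hosts lie between -0.30 and 0.43, while members range from -2.50 for Snord42a to 1.02 for Snora75.

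The proteins that bind the snoRNAs were also counted. The 4 box C/D core proteins had log2 changes near 0: Fbl, the methyltransferase, 0.02 ± 0.37, Nop56 0.10 ± 0.21, Nop58 0.13 ± 0.20 and Nhp2l1 0.25 ± 0.60 (SE). The 4 box H/ACA core proteins were all on the positive side with a median of 0.45. Gar1 had 85.4 and 65.9 CPM in Ell2-KD, against 41.1 and 45.2 in shGFP, with separate groups and 0.81 ± 0.32 on the log2 scale (SE; edgeR adjusted p = 0.807). Dkc1, the pseudouridine synthase, had 382 and 429 CPM in Ell2-KD, against 333 and 318 in shGFP, and Nhp2 had 141 and 113 CPM in Ell2-KD, against 92.1 and 93.3 in shGFP. Both had separate groups, with log2 changes of 0.32 ± 0.21 and 0.46 ± 0.27 (SE), and neither passed. Over all genes tested, both Ell2-KD libraries were above both shGFP libraries for 17.4% and below both for 18.5%. In box C/D core proteins 0 of 4 had separate groups. Nop10 overlapped between groups and had 0.44 ± 0.41 (SE). Of the core proteins, 0 of 8 passed the test.

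Assembly factors, other small RNAs and the transcription machinery of small nuclear RNAs were read from the same test. Of 32 assembly and maturation factors tested, 23 were above and 9 below 0 in log2 change, the median was 0.08, and 0 passed. Rpap3, a subunit of the R2TP complex that assembles box C/D particles, had 75.5 and 79.3 CPM in Ell2-KD, against 38.5 and 32.1 in shGFP, or 1.13 ± 0.32 on the log2 scale (SE; edgeR adjusted p = 0.579). Naf1, which loads early on box H/ACA RNAs, had 67.0 and 70 CPM in Ell2-KD, against 38.6 and 38.9 in shGFP, and 0.82 ± 0.32 (SE; edgeR adjusted p = 0.804). Both had separate groups with close replicates. Of the 32 factors, both Ell2-KD libraries were above both shGFP libraries for 9 and below both for 3, against 17.4% and 18.5% of genes tested. Of 25 genes of the little elongation complex, the Integrator complex and the factors that bind promoters of small nuclear RNA genes, 11 were above and 14 below 0, the median was -0.00, and 0 passed. Snapc3, of the complex that binds such promoters, had 39.5 and 48.0 CPM in Ell2-KD, against 17.2 and 25.2 in shGFP, and 1.05 ± 0.42 (SE; edgeR adjusted p = 0.807).

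A list of other small noncoding RNAs also had a distance between the replicate numbers. The list is mixed, and its Scarna entries and Rnu73b are not a class of RNA apart from the snoRNAs. Of 17 listed, 15 were tested, of which 4 were above and 11 below 0 in log2 change. Their median was -0.29, and 0 passed the test. Their median log2 ratio of replicate 2 over replicate 1 was 1.44 in Ell2-KD and 1.91 in shGFP. Scarna10, a Cajal body RNA, had 21.7 and 33.7 CPM in Ell2-KD, against 42.5 and 81.4 in shGFP, with separate groups and -1.17 ± 0.43 (SE; edgeR adjusted p = 0.754). Of the 15 tested, both Ell2-KD libraries were below both shGFP libraries for 1 and above both for 0 (18.5% and 17.4% of genes tested). For 11 of the 15, both replicate 2 libraries were above both replicate 1 libraries, so these could not have separate groups. The counts are therefore not comparable with the shares of genes. Rmrp, the RNA of the RNase MRP that cuts precursor ribosomal RNA, had counts of 5609 and 7743 in Ell2-KD, against 2525 and 14717 in shGFP. The 9 tested noncoding host genes had a median log2 change of 0.04, with Snhg6, the host of Snord87, at 0.56 ± 0.29 (SE; edgeR adjusted p = 0.871).

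Of 37 box C/D entries below it, 35 had 0 counts in all libraries, and 30 of these are copies of the imprinted Snord116 cluster, which is known for its expression in brain. Snord64, of the same region, also had 0 counts. Of 9 box H/ACA entries below the limit, 3 had 0 counts in all libraries. Just inside the limit were Snord88c with 18 counts over the 4 libraries and Snord1b with 70, and Snora41 with 29 and Snora2b with 71. Just outside were Snord1c with 10 and Snord90 with 1, and Snora47 with 14 and Snora36b with 6. Of the members, Snord1b (counts of 20 and 1 in Ell2-KD, against 12 and 37 in shGFP), Snord88c and Snora41 (0 and 1 in Ell2-KD, against 24 and 4 in shGFP) were too low to test.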

How the data were processed

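Read counts per gene were deposited by the authors for each library as whole numbers, with totals that differ between libraries. HTSeq 0.5.3, SAMtools 0.1.11 and DESeq 1.4.1 stand in the submitters' processing notes, with build mm9. Aligner, annotation and strand setting are not given in the sources, so reads of a snoRNA and of an overlapping exon cannot be told apart. Members and gene lists were chosen with earlier results of these data known. The test used edgeR 4.0.16 under R 4.3.3: filterByExpr (minimum count 10, minimum total 15) kept 11027 of 22722 genes, libraries were scaled by TMM, and the two-sided quasi-likelihood test (glmQLFit with robust settings) had group as its only term, Ell2-KD over shGFP. The Benjamini-Hochberg adjustment covered every gene tested, and the threshold was 0.05. The common biological coefficient of variation was 0.431, and values after ± are SEs or, where marked, SDs. Ratios within a replicate number are of CPM with a prior count of 0.5, with no test. The depth of the shallowest library, 3496471 counts, limits rare members.

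Members named in the text are, per class, those past the threshold, the 6 most abundant, the 4 of smallest p per direction, Snord15b and Snora61, those over 2-fold apart in the same direction in both numbers with a mean of at least 5 CPM, those nearest the count limit, and the hosts of these. Of the lists, every core protein and up to 3 genes per list by smallest p were taken. Snord42b, Snord4a, Snora44, Snord32a, Snord33, Snord49a, Snord55, Snord82, Snord87 and Rmrp fall outside this rule and were named after their values were seen. Sequences, hosts and overlaps came from GENCODE M21 and older symbols from RefSeq, both on GRCm38; 84 of 86 members matched a single annotated gene, and members with several copies were left out of the sequence counts. The test was tried on simulated counts, where 28 of 52115 unchanged genes were called. Alternatives were DESeq2 1.42.0, other scalings, filters and prior counts, a replicate block and leaving out each library.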

Additional observations from a re-analysis of the deposited data

How the results depend on the processing

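The test called 5 genes, against 2 with library totals alone, 43 with DESeq2, 22 with no filter on low counts, 28 with the replicate block and 1 to 6 with a library left out (1 without Ell2-KD replicate 2 or shGFP replicate 1, 4 without shGFP replicate 2, 6 without Ell2-KD replicate 1). Box C/D members called were 0, against 1 with DESeq2 and 1 with no filter (Snord42a, -2.48 and -2.44, adjusted p 0.0178 and 0.0121) and 1 with the replicate block (Snord8, 1.11, adjusted p 0.0426). Box H/ACA members called were 0, against 1 with DESeq2 and 1 with the replicate block (Snora61, -1.27 and -1.24, adjusted p 0.0342 and 0.0430). Labels do not say what a replicate number marks, and same-numbered libraries correlated at 0.311 in their deviations from the group means, over 2 pairs. With the block, 15 box C/D members were lower and 2 higher at an unadjusted p under 0.05, and 7 and 1 of box H/ACA, against 5.71% and 4.88% of genes; the medians were -0.33 and -0.53, and Snord15b (0.10) and Snord89 (0.14) turned positive. The box H/ACA share ratio in number 1 moved to -0.41 without Snora52. The other scalings, filters, prior counts and DESeq2 kept the sign of both class medians.

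With 1 library left out the lone library of a group is assumed to vary like the other. The class medians ran between -3.39 and 2.44 for box C/D and between -1.88 and 1.42 for box H/ACA. List medians ran -0.014 to 0.20 for host genes, -0.022 to 0.15 for box C/D core proteins, 0.35 to 0.75 for box H/ACA core proteins, -0.12 to 0.14 for little elongation complex and snRNA transcription, -0.33 to 0.35 for noncoding snoRNA host genes, -1.03 to 1.01 for other small noncoding RNAs, 0.10 to 0.22 for snoRNP assembly and maturation factors. Leaving out a library also unbalances the replicate numbers, so for members with replicates far apart the sign follows the library left out. Snord99 changed sign in this way, although its log2 ratios within the numbers were -1.20 and -1.22. Keeping the sign is therefore no measure of the difference between the groups. Of 29 named tested members, 7 kept their sign with any library left out, namely Snord34, Snord42a, Snord93, Snora61, Snora68, Snora3 and Snora75. The others ran, in log2 change, Snora17 -2.57 to 2.02, Snora23 -3.66 to 2.57, Snora28 -3.97 to 3.99, Snora34 -1.39 to 3.02, Snora43 -0.84 to 1.02, Snora52 -1.33 to 0.16, Snora5c -2.72 to 0.91, Snora64 -0.41 to 1.61, Snora74a -3.70 to 5.38, Snord123 -1.44 to 2.40, Snord15a -0.44 to 2.01, Snord15b -4.78 to 5.0, Snord22 -3.85 to 2.78, Snord35a -3.36 to 3.96, Snord47 -0.56 to 0.77, Snord53 -1.76 to 3.03, Snord66 -4.78 to 0.32, Snord8 -5.41 to 7.78, Snord85 -9.54 to 2.15, Snord88a -3.19 to 0.66, Snord89 -5.19 to 5.55, Snord99 -4.02 to 1.59. Among hosts and lists, the values ran Fbl -0.028 to 0.075, Nhp2l1 -0.32 to 0.64, Nop10 -0.27 to 0.90, Nop56 -0.046 to 0.23, Rpl13a -1.48 to 1.51, Rpl23a -0.73 to 0.33, Rps3 -0.049 to 0.22, Scarna17 -0.33 to 1.47, Scarna3a -1.91 to 1.26, Snhg12 -0.16 to 0.49, Snhg3 -1.35 to 1.19. Depth and the distance between replicates limit what these 4 libraries show about single snoRNAs.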
